A study of Homo sapiens with 4 samples.

Results

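IFI44L, IFI44 and IFI27 are 3 interferon-induced genes that were higher in an edited line of NK-92, a human natural killer cell line, than in the wild-type line at both times of interleukin 2 (IL-2) treatment. They were picked by name, because they stayed higher in the edited line at both times while other interferon genes differed only at 48 h. The values that chose them are the line differences, which are therefore described without a test. They are 3 of 61860 gene identifiers in the count table and 3 of the 17492 genes that passed a filter on low counts. All 3 passed that filter, IFI44L only through the libraries of the edited line, in which it was high. In ΔOGT-ISS cells an intronic splicing silencer of OGT, the gene of the O-GlcNAc transferase, was deleted with CRISPR-Cas9. WT cells carry no edit, and both lines were grown with IL-2. From each line, 1 library had received IL-2 48 h before extraction and 1 had received it 24 h before, which makes 4 libraries and 1 per combination. IL-2 is absent from the titles of the 48 h pair but is stated for all 4 libraries in their treatment labels, which set the times used here. Whether the libraries stem from separate cultures, and whether the edited line is 1 clone, is not stated.

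Type I interferons bind a receptor made of IFNAR1 and IFNAR2, whose kinases JAK1 and TYK2 phosphorylate STAT2. With IRF9 it is part of ISGF3, a complex that binds interferon-stimulated response elements in the promoters of many genes with antiviral and regulatory roles. IFI44 and IFI44L are paralogs that lie next to each other. Both encode cytosolic proteins induced by type I interferon, and both have been reported to bind the co-chaperone FKBP5. IFI27 encodes a small hydrophobic protein of the ISG12 family, which also holds IFI6, IFI27L1 and IFI27L2. In NK cells, interferon signalling is known to raise cytotoxicity and to act beside IL-2.

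IFI44L (ENSG00000137959) lies on the plus strand of chromosome 1 at 78619922 to 78646145 in GENCODE release 29 on GRCh38. IFI44 (ENSG00000137965) follows on the same strand at 78649796 to 78664078. IFI27 (ENSG00000165949) lies on the plus strand of chromosome 14 at 94104836 to 94116698. No other gene of that annotation overlaps any of the 3. The 250 bases before each gene's RefSeq start (GRCh38.p14, plus strand) are printed because ISGF3 acts at such sites. They are chr1:78620198-78620447 for IFI44L, chr1:78649539-78649788 for IFI44 and chr14:94110486-94110735 for IFI27. Capitals mark every match to GAAANNGAAA, the core letters of the response element, or to the same letters with 1 base more (GAAANNNGAAA) or fewer (GAAANGAAA) between the GAAA blocks, on either strand.
IFI44L: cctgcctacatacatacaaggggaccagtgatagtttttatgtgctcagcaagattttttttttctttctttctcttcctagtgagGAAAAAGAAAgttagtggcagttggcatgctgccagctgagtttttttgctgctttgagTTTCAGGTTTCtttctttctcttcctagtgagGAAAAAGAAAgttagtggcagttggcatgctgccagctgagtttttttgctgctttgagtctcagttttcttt
IFI44: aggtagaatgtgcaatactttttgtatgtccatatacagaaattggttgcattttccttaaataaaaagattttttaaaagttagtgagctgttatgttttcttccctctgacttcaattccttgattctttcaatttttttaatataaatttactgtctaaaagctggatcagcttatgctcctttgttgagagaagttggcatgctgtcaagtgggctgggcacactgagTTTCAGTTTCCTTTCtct
IFI27: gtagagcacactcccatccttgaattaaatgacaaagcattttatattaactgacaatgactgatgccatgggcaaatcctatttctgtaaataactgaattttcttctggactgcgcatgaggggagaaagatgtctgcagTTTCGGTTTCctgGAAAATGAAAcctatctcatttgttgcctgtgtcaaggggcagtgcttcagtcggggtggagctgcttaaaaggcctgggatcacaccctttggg

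All 3 stretches held GAAANNGAAA. IFI44L had it at 164 to 155 and again at 73 to 64 bases before the start, both times as GAAAAAGAAA, because an 85-base stretch occurs 2 times without a mismatch in this window. The longer-spaced form lay between them, as TTTCAGGTTTC. IFI44 had TTTCAGTTTC at 18 to 9 bases before the start, overlapping a TTTCCTTTC at 12 to 4. IFI27 had TTTCGGTTTC at 108 to 99 and GAAAATGAAA at 95 to 86. The paralogs IFI44L and IFI44 shared a longest exact run of 13 bases, against 7 between IFI44L and IFI27 and 8 between IFI44 and IFI27.

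Among 27305 genes with a promoter in the RefSeq table, 3.71% held GAAANNGAAA in the same stretch, 3.10% the longer and 3.34% the shorter form. A list of 74 symbols of type I interferon-induced genes, called the interferon list here, includes the 3 genes. Of its other genes 52 had a promoter in the table, and 29 of these (55.8%) held GAAANNGAAA. The letters are thus not particular to the 3 genes. Of the 65 other genes of the list that passed the low-count filter, 26 had the letters, with a median log2 line difference of 1.71 at 48 h and -0.18 at 24 h, and 23 had a promoter without them, with 0.89 and -0.06. The highest line difference at 24 h was 0.55 among the 26 and 0.28 among the 23.

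IFI44L had 990 counts in ΔOGT-ISS and 0 in WT at 48 h, and 121 in ΔOGT-ISS and 4 in WT at 24 h. These are 86.5 CPM (counts scaled to a common library size, normalized by TMM) and 0 at 48 h, and 4.16 and 0.162 CPM at 24 h. For the WT 48 h library the limit taken for a 0 was 3 counts, or 0.283 CPM. Both ΔOGT-ISS libraries lay above both WT libraries, and the WT line was at or near the limit of detection at both times. At 48 h IFI44L was 306-fold higher in ΔOGT-ISS than that limit, which is no lower bound. The exact 95% counting interval of the ratio starts at 248. At 24 h IFI44L was 25.7-fold higher (interval 9.78 to 95.8). These intervals, and all those below, are exact conditional binomial intervals that cover counting error only.

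IFI44 had 976 counts in ΔOGT-ISS and 14 in WT at 48 h, and 489 in ΔOGT-ISS and 54 in WT at 24 h. In CPM these are 85.2 and 1.32 at 48 h, and 16.8 and 2.19 at 24 h. Again both edited libraries lay above both WT libraries. At 48 h ΔOGT-ISS exceeded WT by a factor of 64.6 (38.3 to 119), and at 24 h by 7.69 (5.80 to 10.4).

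IFI27 had 3153 counts in ΔOGT-ISS and 25 in WT at 48 h, and 1833 in ΔOGT-ISS and 282 in WT at 24 h. In CPM these are 275 and 2.36 at 48 h, and 63.0 and 11.4 at 24 h. At 48 h the line ratio was thus 117 (79.0 to 181), and at 24 h it was 5.52 (4.87 to 6.28). Its lower edited library, at 24 h, lay above its higher WT library, also at 24 h. In bulk RNA a change in the share of cells that express a gene and a change in its level per cell cannot be told apart.

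**Figure D1:**
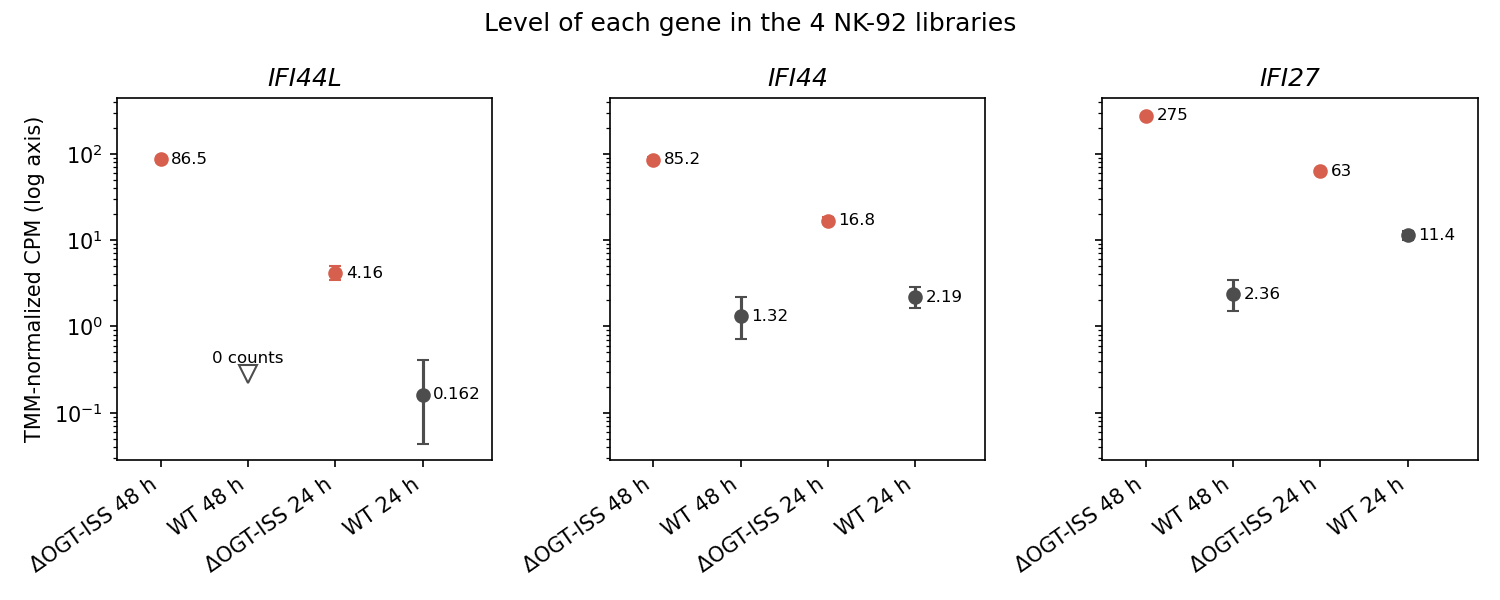
TMM-normalized CPM (log axis) of IFI44L, IFI44 and IFI27 in the 4 libraries, 1 point per library, red for ΔOGT-ISS and grey for WT. Bars are exact Poisson 95% intervals for counting error. The open triangle is 0.283 CPM, the limit taken for a count of 0, below the 0.348 CPM at which its exact interval ends. Each gene is highest in ΔOGT-ISS at 48 h and next highest in ΔOGT-ISS at 24 h.

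Per transcript length, IFI27 was the most abundant of the 3 and IFI44L the least in every library. In the FPKM deposited by the authors, ΔOGT-ISS at 48 h had 428 for IFI27, 51.4 for IFI44 and 15.0 for IFI44L, and WT at 48 h had 3.52, 0.765 and 0. At 24 h ΔOGT-ISS had 98.4, 10.2 and 0.727, and WT had 17.4, 1.29 and 0.0277. Ranked by FPKM among 12021 tested protein-coding genes, IFI27 stood at position 125 in ΔOGT-ISS and 7669 in WT at 48 h, and at 613 and 4093 at 24 h. IFI44 stood at 1371 and 9620 at 48 h and at 5798 and 9495 at 24 h. IFI27 was thus among the most abundant messages of the edited line and a mid-range message of WT.

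Among all 17492 tested genes the line difference of IFI44L was the highest at 48 h, with IFI27 in position 3 and IFI44 in position 6. At 24 h IFI44L, IFI44 and IFI27 stood in positions 6, 15 and 28. A difference of at least 2-fold in favour of ΔOGT-ISS was found for 13.3% of tested genes at 48 h, 2.59% at 24 h and 1.06% at both times. The 3 genes were picked for this property, and nothing is read from their place among those genes. The WT 48 h library detected 24644 identifiers, against 31241 in ΔOGT-ISS at 48 h, and 3.85% of tested genes were at 0 counts in it, against 1.73% in ΔOGT-ISS. The 24 h libraries detected 33200 in ΔOGT-ISS and 34475 in WT. In both 48 h libraries the low end of the counts was unusual, with 0.973 (ΔOGT-ISS) and 0.932 (WT) genes at 1 count for each at 2 counts, against 1.70 and 1.72 at 24 h. The part of these library differences in the 48 h ratios was not tested. IFI44L was the 1 tested gene at 0 in WT 48 h that reached at least 20 CPM in another library, a threshold chosen after seeing its values.

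The other tested members of the interferon list set the frame for the persistence that named these genes. At 48 h 40 of the 65 other list genes were at least 2-fold higher in ΔOGT-ISS, against 13.3% of all tested genes. Their median log2 difference was 1.45, against 0.02 over all. At 24 h 0 of the 65 were at least 2-fold higher, against 2.59% of all, with a median of -0.15 against 0.00. At least 2-fold lower at 24 h were 4 of the 65, against 959 of all 17492 tested genes. With a prior count of 0.5 in place of 2, 1 of the 65 was at least 2-fold higher at 24 h, MX2 at 1.57. With 1 library per line and time these are descriptions without a test. The summed CPM of the list without the 3 genes was 11979 in ΔOGT-ISS and 5771 in WT at 48 h, and 6616 and 7051 at 24 h. The summed CPM of IFI44L, IFI44 and IFI27 was 447 in ΔOGT-ISS and 3.68 in WT at 48 h, and 84.0 and 13.8 at 24 h.

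Among the 65 tested genes the largest line ratios were below those of the 3 at both times, and lay between 0.508 and 1.75 at 24 h for the 5 with the largest at 48 h. The antiviral GTPase gene MX1 had a ratio at 48 h of 29.8 (25.8 to 34.5), against 1.47 (1.34 to 1.61) for the 24 h pair. OAS1, which makes the activator of RNase L, had 32.0 (20.6 to 52.8) and 1.08 (0.916 to 1.28). XAF1, a pro-apoptotic antagonist of XIAP, had 19.6 (13.2 to 30.2) and 1.03 (0.848 to 1.24). RSAD2, which encodes the antiviral enzyme viperin, had 15.0 (12.5 to 18.2) and 0.508 (0.454 to 0.568). TRIM22, an antiviral ubiquitin ligase gene, had 15.7 (8.60 to 32.1) and 1.75 (1.12 to 2.79). RSAD2 was thus lower in ΔOGT-ISS at 24 h although higher at 48 h.

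Just inside the line that separates the 3 genes from the rest stood IFI27, at a log2 difference of 2.45 at 24 h. Just outside stood MX2 at 0.93, TRIM22 at 0.76, MX1 at 0.55, TRIM5 at 0.35 and PNPT1 at 0.28. MX2, a paralog of MX1, rested on 5 counts in ΔOGT-ISS and 1 in WT at 24 h, a ratio of 4.25 (0.475 to 201). Of the 5 list genes too low to be tested, the dendritic cell gene LAMP3 had 27 and 0 counts at 48 h and 7 and 1 at 24 h (ΔOGT-ISS and WT), a ratio of 5.94 (0.764 to 268) at 24 h. The chemokine gene CXCL10 had 22 and 0 counts at 48 h and 2 and 0 at 24 h. For MX2, LAMP3 and CXCL10 the counts at 24 h were too low to tell a line difference as large as that of IFI27 from none. LAMP3 and CXCL10 were named after their values were seen.

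**Figure D2:**
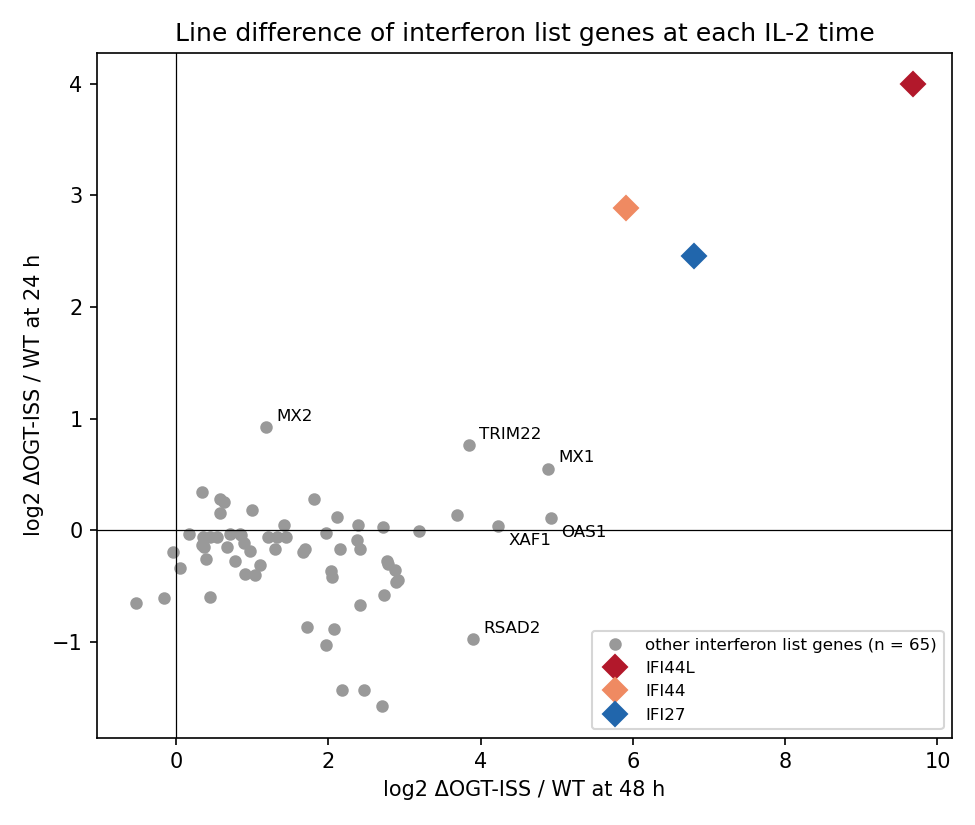
Log2 ratio of ΔOGT-ISS to WT at 48 h (x axis) and at 24 h (y axis) for the 68 tested genes of the interferon list, computed on TMM-normalized CPM after adding a prior count of 2. IFI44L, IFI44 and IFI27 (diamonds) lie at 2.45 or more at 24 h, and the 65 other genes (grey) lie at 0.93 or less.

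The line ratio of each of the 3 genes was smaller at 24 h than at 48 h. The ratio at 48 h divided by the ratio at 24 h was 8.39 (4.54 to 16.5) for IFI44 and 21.2 (14.0 to 33.4) for IFI27. For IFI44L it was unbounded, with an interval from 5.80. The median log2 line difference of the 65 other list genes was also smaller at 24 h, at -0.15 against 1.45 at 48 h. Over all tested genes the medians were 0.00 and 0.02. TRIM5, a restriction factor gene, stood at 0.35 at both times. This contrast between the times has no replicate and was not tested beyond counting error.

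The 48 h and 24 h libraries were then compared within each line. This is not the contrast that chose the genes, but it uses the same 4 values per gene and is not independent of the choice. Both 48 h libraries held fewer counts than the 24 h libraries and had the unusual low end given above. In every comparison of the times, IL-2 time and these library differences therefore cannot be told apart. In ΔOGT-ISS all 3 genes were higher at 48 h. The ratio of 48 h to 24 h there was 20.8 (17.2 to 25.3) for IFI44L, 5.07 (4.54 to 5.66) for IFI44 and 4.37 (4.12 to 4.63) for IFI27. In WT the same ratio was 0.206 (0.131 to 0.311) for IFI27, which was thus lower at 48 h. For IFI44 it was 0.604 (0.310 to 1.10), an interval that includes no difference. For IFI44L, with 0 counts at 48 h and 4 at 24 h, the interval ran from 0 to 3.53, so no direction can be read at this depth.

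A ratio of at least 2-fold higher at 48 h in ΔOGT-ISS was found for 32 of the 65 other list genes, against 15.2% of all tested genes. A ratio of at least 2-fold lower at 48 h in WT was found for 19 of them, against 22.6% of all. Both together were found for 8 of them, against 1.26% of all. Those 8 include OAS1, with ratios of 5.30 (4.64 to 6.05) in ΔOGT-ISS and 0.178 (0.107 to 0.281) in WT, a pattern close to that of IFI27. The ubiquitin-like modifier gene ISG15 differed from it, with 9.91 (9.20 to 10.7) in ΔOGT-ISS and 1.53 (1.36 to 1.72) in WT.

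**Figure D3:**
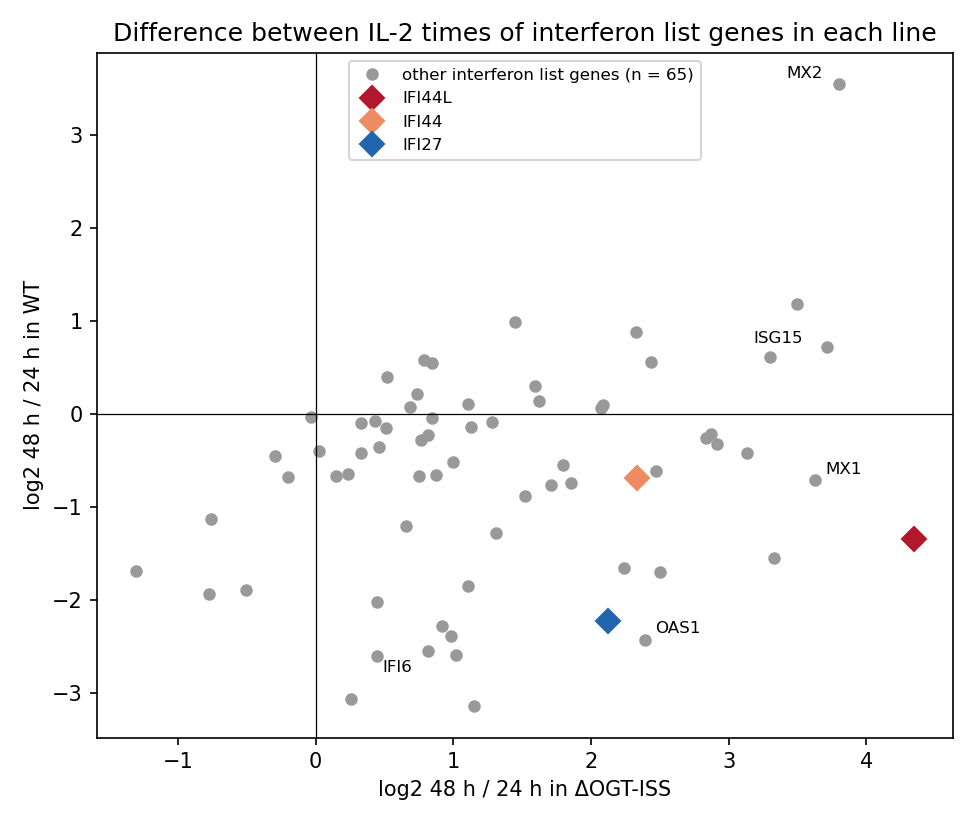
Log2 ratio of 48 h to 24 h in ΔOGT-ISS (x axis) and in WT (y axis) for the 68 tested genes of the interferon list, computed on TMM-normalized CPM after adding a prior count of 2. IFI44L, IFI44 and IFI27 (diamonds) lie in the lower right quadrant, at 2.13 or more in ΔOGT-ISS and below 0 in WT, although the IFI44L value in WT rests on 0 and 4 counts.

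Over both lines, edgeR's quasi-likelihood test of the IL-2 time with line as a covariate called 25.9% of tested genes, 10.9% higher and 15.0% lower at 48 h. Its error term holds the difference between the lines in the ratio of 48 h to 24 h, because no combination has a replicate. The calls were 1910 higher and 2625 lower, but 1220 higher and 893 lower with offsets for GC content and length. IFI44L stood at 3.99 log2 units for 48 h over 24 h and passed (SE 0.70, edgeR adjusted p = 0.00594). It had passed the low-count filter only through ΔOGT-ISS and was chosen on the same libraries, so this call is no independent result. IFI44 stood at 1.34 (SE 0.59, edgeR adjusted p = 0.134) and IFI27 at 0.46 (SE 0.86, edgeR adjusted p = 0.736), and neither passed, although IFI44 passed with no filter on low counts (1.07, edgeR adjusted p = 0.00303). For IFI27 this common term averages ratios that ran in opposite directions in the 2 lines, for IFI44 the WT ratio had no clear direction, and for IFI44L it rests almost wholly on ΔOGT-ISS, since WT had 4 counts in all. The IFI44L call ended with DESeq2 (0.80, adjusted p = 0.895), with limma on FPKM, without the line term and without either 24 h library, and without the ΔOGT-ISS 48 h library its sign turned (-8.55, edgeR adjusted p = 0.213). Of the 65 other tested list genes 9 rose and 4 fell at 48 h by the same test, against 10.9% and 15.0% of all tested genes. Their median was 0.38 log2 units, against -0.07 over all tested genes.

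The family of IFI27 did not move as a group. IFI27L1, a paralog whose annotated end lies 990 bases before IFI27, had 113 counts in ΔOGT-ISS and 104 in WT at 48 h, and 426 and 335 at 24 h. Its line ratio at 48 h was 1.01 (0.764 to 1.33), and that at 24 h 1.08 (0.934 to 1.25). IFI27L2, on the other side of IFI27, had ratios of 0.985 (0.767 to 1.27) and 0.911 (0.812 to 1.02). IFI6, an interferon-induced paralog on another part of chromosome 1, had 1188 counts in ΔOGT-ISS and 147 in WT at 48 h, a ratio of 7.49 (6.30 to 8.95), and 1712 and 2005 at 24 h, a ratio of 0.725 (0.679 to 0.774). IFI6 thus had the pattern of the other list genes.

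The nearest tested genes around the 2 loci, some of them distant, were mostly level. The 5 nearest tested protein-coding genes on each side of IFI44L and IFI44, and of IFI27, make 20 neighbours. Around IFI44L and IFI44 they lie 601 to 860 kb before and 2642 to 5842 kb after. Around IFI27 they lie 990 bases to 1290 kb away. Line differences of the 20 had a median of 0.03 log2 units at 48 h and 0.14 at 24 h. Most tested genes were also within 2-fold. At 48 h 2334 of all 17492 were at least 2-fold higher in ΔOGT-ISS and 1463 lower, and at 24 h 453 and 959. Of the 20 neighbours 18 were within 2-fold at both times. The exceptions were NEXN, which encodes an actin-binding protein, at 1.84 at 48 h and 0.65 at 24 h, and PPP4R4, a phosphatase regulatory subunit, whose 17 and 4 counts at 24 h (ΔOGT-ISS and WT) gave 3.61 (1.18 to 14.7). NEXN lies 676 kb before IFI44L, with FUBP1 and DNAJB4 between them at -0.03 and 0.21 at 48 h.

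**Figure D4:**
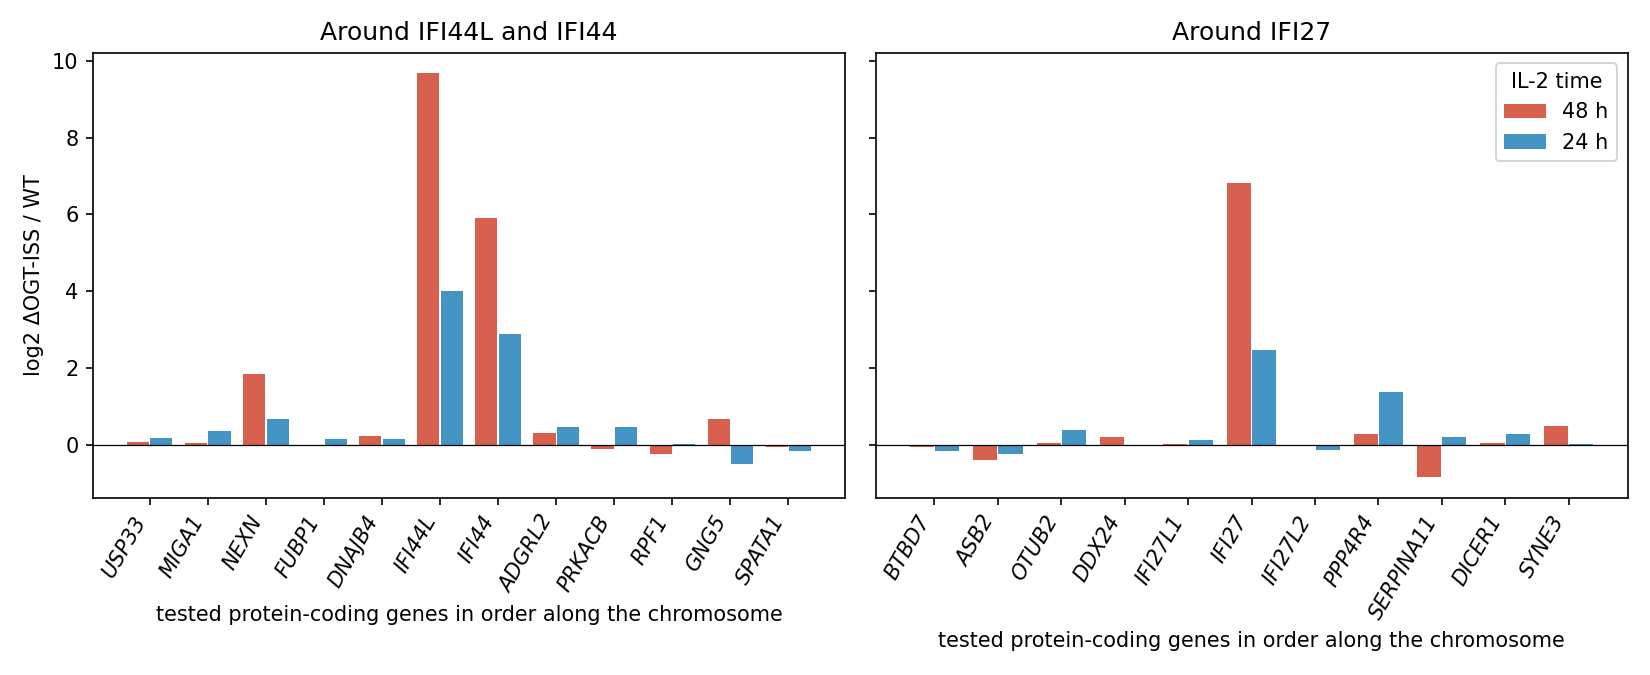
Log2 ratio of ΔOGT-ISS to WT at 48 h (red) and 24 h (blue) for IFI44L, IFI44 and IFI27 and the 5 nearest tested protein-coding genes on each side, in chromosome order and not to scale in distance. The highest value among the 20 neighbours is 1.84, and the height of the IFI44L bar at 48 h depends on the prior count because WT had 0 counts.

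The genes with the most similar profile over the 4 libraries were found by the Euclidean distance between log2 CPM centred on each gene's mean, among genes with at least 1 CPM on average. The nearest to IFI44L were IFI27 and IFI44, at 2.78 and 2.86 log2 units, followed by NLGN1, a synaptic adhesion gene, and PLOD2, a collagen lysyl hydroxylase gene, at 2.94 and 2.98. The nearest to IFI44 was NLGN1-AS1, the antisense gene of NLGN1, at 0.777, then IFI27 at 1.12, PTPN20 at 1.16, NLGN1 at 1.54 and CLSTN2 at 1.78. The nearest to IFI27 was also NLGN1-AS1, at 0.853, then IFI44 at 1.12, with CLSTN2 at 1.57 and 2 pseudogenes between them. In the other direction IFI44L was not close, in position 56 among the genes nearest to IFI44 and 45 among those nearest to IFI27. NLGN1-AS1 had 61 counts in ΔOGT-ISS and 0 in WT at 48 h, and 54 and 4 at 24 h, and cannot be told apart from NLGN1 because the strand setting of the counting is not known. The likeness of PLOD2 has a different course between the times, with 186 and 425 counts in ΔOGT-ISS at 48 h and 24 h and 0 and 4 in WT. None of the most alike genes given here, other than the 3, is in the interferon list. These distances use the same 4 values per gene whose line differences chose the 3. The nearness of the 3 to each other is therefore no independent result.

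Upstream of the 3 genes, interferon messages were scarce apart from IFNG. Of 22 interferon genes 1 was tested, IFNG, the type II interferon of NK cells, with 717 counts in ΔOGT-ISS and 787 in WT at 48 h, and 453 and 666 at 24 h. IFNB1, a type I interferon gene, had 12 counts in ΔOGT-ISS and 0 in WT at 48 h, a ratio whose interval starts at 2.57, and 2 and 0 at 24 h. Among receptors and signalling genes, IFNAR1 was lower in ΔOGT-ISS at both times, at 0.821 of WT (0.753 to 0.895) for the 48 h pair and 0.730 (0.681 to 0.782) for the 24 h pair. IFNAR2, which makes the other part of that receptor, was also lower, at 0.440 (0.316 to 0.607) and 0.803 (0.702 to 0.920). STAT2 and IRF9, which take part in ISGF3, had line ratios of 2.00 and 7.03 at 48 h and 1.13 and 0.825 at 24 h. JAK2, a kinase of the IFNG receptor, had 3.09 (2.38 to 4.05) and 1.36 (1.20 to 1.54). Of the 11 tested receptor and signalling genes 4 were at least 2-fold higher in ΔOGT-ISS at 48 h and 0 at 24 h, against 13.3% and 2.59% of all tested genes. By the IL-2 time test, which called 10.9% of all tested genes higher and 15.0% lower, 2 of the 11 rose at 48 h, among them IFNAR1 (log2 0.66, edgeR adjusted p = 0.0199), and 3 fell, among them IFNAR2 (log2 -1.07, edgeR adjusted p = 0.0345).

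Sensors of viral nucleic acids and their adaptors gave a median line difference of 0.04 at 48 h and -0.04 at 24 h over 14 tested genes, of which 4 and 0 were at least 2-fold higher in ΔOGT-ISS (13.3% and 2.59% of all tested genes). The kinase gene IKBKE had a line ratio at 48 h of 1.09 (0.945 to 1.25), and at 24 h of 0.646 (0.592 to 0.705). IRF5, an interferon regulatory factor gene, had 0.342 (0.184 to 0.609) and 0.682 (0.459 to 1.01). By the IL-2 time test 0 of the 14 rose at 48 h and 4 fell, against 10.9% and 15.0% of all tested genes.

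Among the negative regulators of interferon signalling, the inhibitor gene SOCS1 was lower in ΔOGT-ISS than in WT at both times. SOCS1 had 7 counts in ΔOGT-ISS and 39 in WT at 48 h, and 26 and 91 at 24 h, with ratios of 0.166 (0.0627 to 0.376) and 0.243 (0.151 to 0.379). SOCS3, a related inhibitor gene, had 0 and 2 counts at 48 h, where its ratio of 0 had an interval up to 4.93 and gave no direction. It had 0 and 29 counts at 24 h, with an interval up to 0.115. USP18, which encodes a deISGylase that blocks the type I receptor, had 5.31 (4.10 to 6.98) and 1.04 (0.868 to 1.24), like most of the interferon list. SAMHD1, a nucleotide-depleting restriction factor gene named after its values were seen, had 2.30 (2.19 to 2.41) and 1.98 (1.93 to 2.04). By the IL-2 time test 1 of the 7 tested negative regulators, ISG15, rose at 48 h (log2 1.99, edgeR adjusted p = 0.0346) and 0 fell, against 10.9% and 15.0% of all tested genes.

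Of the reported partners of the 3 proteins, FKBP5 and SKP2 differed little between the lines, and NR4A1 had too few counts to tell. The FKBP5 line ratio at 48 h was 1.16 (1.10 to 1.23), and at 24 h 0.910 (0.882 to 0.939). SKP2, a ubiquitin ligase subunit reported to act with IFI27, had 1.09 (1.00 to 1.19) and 1.14 (1.08 to 1.21). NR4A1, a nuclear receptor gene reported to be bound by IFI27, had 7 and 6 counts at 48 h and 39 and 25 at 24 h (ΔOGT-ISS and WT). Its line ratios were 1.08 (0.311 to 3.89) and 1.32 (0.782 to 2.28), wide intervals that include no difference. None of the 3 partners passed the IL-2 time test, with edgeR adjusted p of 0.139, 0.495 and 0.451.

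The libraries carried NK cell markers, with 12 of 14 at or above 1 CPM in all 4 and the other two, CD7 and FCER1G, lower in some. CD14, CD4 and CLEC4C, defining markers of monocytes, helper T cells and the interferon-making plasmacytoid dendritic cells, were below 1 CPM in all 4 libraries, but other markers of these lists were not. The summed CPM of 9 myeloid markers was 610 in ΔOGT-ISS and 825 in WT at 48 h, and 47.6 and 315 at 24 h, mostly from the calcium-binding protein gene S100A9. The sum of 11 T cell markers was 322 and 372 at 48 h and 523 and 556 at 24 h, with CD3E the most abundant. The B cell list was carried by PAX5, at 61.4 and 79.6 CPM at 48 h and 80.5 and 51.9 at 24 h. The part of these cell type markers in the line and time differences was not tested. The summed CPM of 5 plasmacytoid dendritic cell markers was 120 in ΔOGT-ISS and 102 in WT at 48 h, and 83.9 and 76.9 at 24 h, and came mainly from TCF4 and IL3RA. OGT, the edited gene, had 397 CPM in ΔOGT-ISS and 445 in WT at 48 h, and 383 and 448 at 24 h, with line ratios of 0.893 (0.857 to 0.930) and 0.855 (0.833 to 0.878). OGA, the gene of the opposing O-GlcNAcase, had line ratios of 0.840 (0.782 to 0.902) and 0.869 (0.831 to 0.909). Gene-level totals cannot tell OGT transcripts that keep the intron from those that lose it, and are no check of the deletion.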

How the data were processed

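Per the labels' protocols, ribosomal RNA was removed with RiboCop and libraries were made with a CORALL kit. The authors deposited raw read counts per Ensembl gene. Per the submitters' processing notes, the tools were featureCounts 2.0.1, HISAT2 2.2.0 and SAMtools 1.15.1, and the build was hg38. Not given in the sources used here are the annotation, the strand setting and how multi-mapping reads and molecular identifiers were handled. Recomputation showed that the authors' deposited FPKM scale each count by transcript length and by the library's summed counts. Libraries held 11305599 counts (ΔOGT-ISS) and 10889986 (WT) at 48 h, and 28576566 and 24809269 at 24 h.

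Here, edgeR 4.0.16 in R 4.3.3 was run on the counts with TMM, filterByExpr (minimum count 10) and terms for line and IL-2 time. This leaves 1 residual degree of freedom, which is the difference between the lines in the 48 h to 24 h ratio. The SE and p-values thus take that difference, with any technical scatter, as error, and no replicate separates the 2. The p-values were two-sided and Benjamini-Hochberg adjusted over 17492 genes, with a threshold of 0.05. The SE is the log2 change divided by the square root of F. Log2 ratios between single libraries use a prior count of 2 and have no test. Symbols came from the FPKM table for 41013 identifiers and from a reference name table for 1404.

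The members, lists, tests and alternatives were chosen with earlier results of these data known. Names in the text were drawn from the 3 genes, their paralogs, OGT and OGA, the 5 nearest tested protein-coding genes per side, the 5 most alike genes, the 5 largest line ratios of the interferon list at each time and the 2 largest at 24 h of each other list among genes with at least 10 counts in 1 library. Pseudogenes were not named, most neighbours are given as counts and ranges, and further genes were named after their values were seen. Alternatives were other normalizations, filters and prior counts, DESeq2 1.42.0, limma 3.58.1 on FPKM, 24 h libraries thinned to WT 48 h, offsets for GC content and length, no line term and leaving out each library. Some genes of the lists are not reported here by name.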

Additional observations from a re-analysis of the deposited data

Results flagged for a closer look

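The ratio of 48 h to 24 h as a point value lay above 1 in ΔOGT-ISS and below 1 in WT for all 3 genes, which is why they are listed. The log2 difference between the lines in that ratio, ΔOGT-ISS minus WT, was 5.69 for IFI44L, 3.02 for IFI44 and 4.35 for IFI27. By arithmetic it equals the line difference at 48 h minus that at 24 h, which chose the genes. The difference was not tested, since each value rests on 4 single libraries. For IFI44L the WT direction rests on 0 and 4 counts, and for IFI44 the WT counting interval includes no difference.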

How the results depend on the processing

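The line differences of IFI44L, IFI44 and IFI27 under other normalizations, a prior count of 0.5, FPKM and thinning stayed inside their counting intervals in 13 of 15 values at 48 h and 17 of 18 at 24 h (for IFI44L at 48 h, whose interval has no upper end, within 1.5-fold). The exceptions were all IFI44L, at 48 h (9.68) with a prior count of 0.5 (11.68) and with log2(FPKM + 0.1) (7.24), and at 24 h with log2(FPKM + 0.1) (2.70, below an interval that starts at 9.78-fold). The list counts, members included, were 43 at 48 h (42 to 45 under the alternatives) and 3 at 24 h (3 to 4, the 4 with a prior count of 0.5). The number of genes called by IL-2 time, 4535 with edgeR, was 2113 with offsets for GC content and length (1220 higher and 893 lower, against 1910 and 2625), 0 with limma on log2(FPKM + 0.1) (5601 at an unadjusted p under 0.05, and 3463 called with a pseudocount of 1) and 570 to 3545 without 1 library each. With upper-quartile factors it was 2335 higher and 2358 lower. Fits without 1 library also lack the line term, since 3 libraries leave no residual degree of freedom with both. The IFI44L time difference (3.99) was 0.80 with DESeq2 (adjusted p = 0.895), 1.59 and 1.92 with limma on FPKM with pseudocounts of 1 and 0.1 (adjusted p = 0.222 and 0.390), 4.30 without the line term (edgeR adjusted p = 0.221) and -8.55 to 7.99 without 1 library each. IFI44 stood at 1.07 with no filter on low counts (edgeR adjusted p = 0.00303) and at -2.82 to 4.30 without 1 library each. IFI27 stood at -0.020 with DESeq2, -0.078 with limma on log2(FPKM + 0.1) and -3.95 to 3.60 without 1 library each. The cause of these differences was not tested.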

Other observations

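The type II interferon gene IFNG had 62.6 CPM in ΔOGT-ISS and 74.2 in WT at 48 h, and 15.6 and 27.0 at 24 h. It rose at 48 h against 24 h over both lines (log2 1.73, edgeR adjusted p = 0.00122), with ratios of 4.02 (3.57 to 4.53) in ΔOGT-ISS and 2.75 (2.48 to 3.06) in WT. As above, IL-2 time and the library differences cannot be told apart here. GBP2, a guanylate-binding protein gene induced by IFNG, had 398 CPM in ΔOGT-ISS and 484 in WT at 48 h, and 108 and 185 at 24 h, and also rose at 48 h (log2 1.63, edgeR adjusted p = 0.00114). Of 12 tested genes of the type II interferon list, 3 rose and 2 fell at 48 h by that test, against 10.9% and 15.0% of all tested genes. Its median log2 line difference was 0.71 at 48 h and -0.19 at 24 h. At 48 h 8 of the 12 were above 0, against 9011 of all 17492 tested genes. GBP1, named after its values were seen, had line ratios of 2.71 at 48 h and 0.908 at 24 h.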
